A study of Mus musculus with 4 samples.

Results

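A set of 8 genes of the adherens junction was followed in newborn mouse keratinocytes labelled control or Ovol2-deficient. These were the cadherins Cdh1 and Cdh3, the catenins Ctnna1, Ctnnb1, Ctnnd1 and Jup, the alpha-catenin relative Ctnnal1, and the adhesion molecule Epcam. They were taken by symbol from the expression table, and all 8 were found among its 23970 gene symbols, each in 1 row. The libraries came from primary epidermal keratinocytes of newborn mice, grown to passage 0 in low-calcium medium on growth-arrested J2-3T3 fibroblasts and freed of these feeder cells before RNA extraction. There were 2 control libraries, whose genotype is labelled only as control, and 2 libraries labelled Ovol2-deficient, with no other treatment in either group. The sample titles code the deficient libraries as SSKO, which the labels do not explain, and the expression table heads their columns mutant. The labels do not give the allele, the driver of the deficiency, or whether the libraries came from separate animals, so p-values measure only the spread between these libraries. Expression is in FPKM, fragment counts scaled to transcript length and to the mapped fragments of each library. Levels of different genes compared in FPKM depend on the transcript lengths used, which are not given in the sources used here.

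Classical cadherins join neighbouring cells by pairing their outer domains, which needs calcium. Inside the cell the cadherin tail binds beta-catenin (Ctnnb1) or its close relative plakoglobin (Jup), these bind alpha-catenin (Ctnna1), and alpha-catenin links the complex to actin, while p120-catenin (Ctnnd1) binds nearer the membrane and keeps the cadherin at the cell surface. In epidermis E-cadherin (Cdh1) is made in all living layers and P-cadherin (Cdh3) mainly in basal cells and hair follicles, and beta-catenin also carries Wnt signals to the nucleus. The medium was low in calcium, in which keratinocytes form few mature junctions.

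Of the 8 genes, Ctnnal1 fell in the Ovol2-deficient libraries, to 44.2% of its control mean, and the other 7 did not pass the test. The 2 cadherins stood at 81.2% (Cdh1) and 78.7% (Cdh3) of their control means and Epcam at 74.98%. The core catenins lay nearer their control levels, Ctnnd1 at 85.7%, Jup at 91.6%, Ctnna1 at 92.7% and Ctnnb1 at 93.2%. The log2 fold change was below 0 for all 8, beside 50.4% of all genes tested, and stayed so with quantile normalization or with each library centred on its median. Its median over the 8 was -0.26, beside -0.0014 over the 11350 genes tested. For 7 of the 8 the higher deficient value was under the lower control, which was so for 24.0% of all genes tested. In limma (adjusted p under 0.05, Benjamini-Hochberg over all genes tested) 1 of the 8 was called lower, where 0.511% of all genes were, and 0 were called higher (0.837% of all genes, and 1.35% in either direction). At an unadjusted p under 0.05, 5 of the 8 were lower, beside 7.94% of all genes. Among the 8, the authors' deposited table gave Ctnnal1, Cdh3 and Cdh1 an adjusted p under 0.05. These 3 were lower, beside 2.10% of its rows with an adjusted p, and 0 were higher, beside 2.33% (4.43% in either direction).

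**Figure D1:**
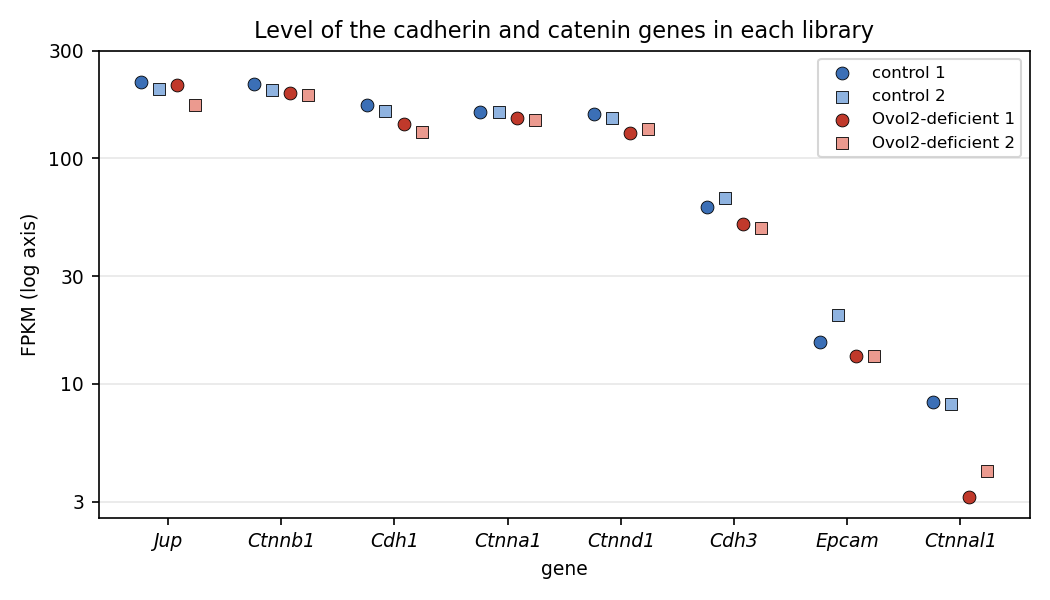
FPKM (log axis) of each of the 8 genes in the 2 control libraries (blue) and the 2 Ovol2-deficient libraries (red), ordered by the control mean. Both red points lie below both blue points for every gene but Jup, and the gap is widest for Ctnnal1.

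Facts of the whole data set bear on all of these values. Ovol2 itself had an FPKM of 2.68 and 2.14 in control libraries against 1.45 and 0.941 in deficient ones. Both deficient values were below both controls, which was so for 24.0% of all genes tested. Ovol2 did not pass in limma (adjusted p = 0.129) or in the authors' deposited table (log2 fold change -0.36, adjusted p = 0.441). Its mean normalized signal in the latter was 48.6. The keratinocyte label was met by its markers, with Krt5 at FPKM 2269 to 2960 and Krt14 at 1773 to 2292 over the 4 libraries. Of 10 keratinocyte markers 0 were called in limma and 3 had an unadjusted p under 0.05, beside 17.4% of all genes tested. The authors' deposited table called 2 of the 10 lower, beside 2.10% of its rows with an adjusted p. Both deficient values were below both controls for 5 and above for 0, beside 24.0% and 24.1% of all genes tested. The median log2 fold change of the 10 was -0.21. Their summed FPKM was 7335 and 7876 in controls and 6074 and 7092 in deficient libraries. Of 13 fibroblast or feeder markers tested, 2 of them, Loxl1 and Pcolce, rose, beside 0.837% of all genes tested. An unadjusted p under 0.05 was found for 12, beside 17.4% of all genes tested. All 13 had both deficient values above both controls, beside 24.1% of all genes tested. The authors' deposited table called 8 of the listed genes higher, beside 2.33% of its rows with an adjusted p. The summed FPKM of the 16 listed was 346 to 361 in controls and 463 to 492 in deficient libraries. Of 6 melanocyte markers tested 0 were called in limma and 4 had an unadjusted p under 0.05, beside 17.4% of all genes tested. All 6 had both deficient values above both controls, beside 24.1% of all genes tested. The authors' deposited table called 1 of the listed genes higher, beside 2.33% of its rows with an adjusted p. The sum of the 9 listed was 62.9 to 68.6 in controls and 85.2 to 91.8 in deficient libraries. The immune and endothelial sums overlapped between the groups, at 17.9 to 22.9 and 3.51 to 4.67 over all libraries, and the Langerhans cell marker Cd207 and the endothelial cadherin Cdh5 were listed at 0 in every library. The part of these shifts in the values of the 8 genes was not tested, and in bulk RNA fewer cells of a type and less RNA per cell cannot be told apart.

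Promoter sequences are shown for Epcam, whose window carries the binding letters of the E-cadherin repressors measured further on, and for Ctnnal1, the gene that fell. Windows of the 250 bases before a gene's start (RefSeq, GRCm38.p6) were searched on both strands for the E-box CAGGTG, which Snail and Zeb repressors bind, for CCGTTA, the core letters bound by Ovo proteins, and for the GC box GGGCGG, and 5 of the 8 genes had 7 such windows. Cdh1, Cdh3 and Ctnna1 were not searched. Capitals mark any of these matches, and the sequences read 5′ to 3′ toward the start. The window of Epcam is chr17:87635729-87635978 on the plus strand and that of Ctnnal1 is chr4:56865212-56865461 on the minus strand.
Epcam: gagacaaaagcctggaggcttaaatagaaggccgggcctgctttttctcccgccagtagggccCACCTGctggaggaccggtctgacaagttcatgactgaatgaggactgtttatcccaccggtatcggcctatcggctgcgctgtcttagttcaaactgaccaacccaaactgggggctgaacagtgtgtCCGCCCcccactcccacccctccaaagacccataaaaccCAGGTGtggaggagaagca
Ctnnal1: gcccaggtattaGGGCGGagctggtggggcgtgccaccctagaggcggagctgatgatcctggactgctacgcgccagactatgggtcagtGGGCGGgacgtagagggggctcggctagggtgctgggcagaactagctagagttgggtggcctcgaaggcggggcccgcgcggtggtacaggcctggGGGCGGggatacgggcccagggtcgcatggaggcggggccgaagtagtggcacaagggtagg
The Epcam window holds 2 E-boxes, which begin 187 and 19 bases before the start, and 1 GC box at 58 bases. It was the only one of the 7 windows with an E-box, and 17.2% of all 32851 windows of this length hold one. Ctnnal1 has 3 GC boxes, at 238, 159 and 62 bases, and no E-box, and a GC box is in 32.7% of windows. The letters CCGTTA were in none of the 7 windows and in 2.18% of all windows. A match is a run of letters and not a measured site.

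E-cadherin and P-cadherin are encoded near each other, with Cdh3 (ENSMUSG00000061048.8, GRCm38, chromosome 8, 106510891 to 106557297) upstream of Cdh1 (ENSMUSG00000000303.12, 106603351 to 106670246) on the plus strand, 46053 bases apart with 2 annotated genes between them (Gm10073 and 1110028F18Rik). Cdh1 read FPKM 172 and 162 in control libraries against 141 and 130.3 in deficient ones. The groups did not overlap, and the gap between them was larger than the difference within either. The log2 fold change was -0.30 (SE 0.09, 95% interval -0.52 to -0.08), which did not pass in limma after adjustment (adjusted p = 0.167), while the authors' deposited table gave -0.30 with an adjusted p of 0.0356. Cdh3 read 61.0 and 66.4 in control libraries against 51.3 and 48.96 in deficient ones. Again the groups were apart, with a log2 fold change of -0.34 (SE 0.09, 95% interval -0.56 to -0.12, adjusted p = 0.123 in limma). The authors' deposited table gave -0.34 for Cdh3 with an adjusted p of 0.0250.

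The balance of the 2 cadherins overlapped between the groups. Cdh3 stood at 0.354 and 0.409 of the Cdh1 level in control libraries against 0.363 and 0.376 in deficient ones, which did not separate them (exact permutation test over the 4 libraries, 2-sided, p = 1). With 2 libraries a group that test can give no p below 0.333. Over 21 cadherin genes, Cdh1 held 66.6% and 64.5% of the summed FPKM in controls and 63.2% and 62.1% in deficient libraries. Cdh3 held 23.6% and 26.4%, then 22.9% and 23.3%. Together the 2 epithelial cadherins made up 90.2% and 90.9% of the cadherin sum in controls and 86.1% and 85.5% in deficient libraries, while the sum itself was 258 and 252, then 224 and 209.7.

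Other cadherins took the remaining share. N-cadherin (Cdh2), found in mesenchymal and neural cells and in melanocytes, read FPKM 13.1 and 11.5 in controls and 17.3 and 15.6 in deficient libraries, and Cdh11, a cadherin of mesenchymal cells, read 2.39 and 2.87, then 3.78 and 4.58. T-cadherin (Cdh13), which lacks the cytoplasmic tail, read 8.77 and 6.89, then 9.12 and 8.81. All 3 had both deficient values above both controls, beside 24.1% of all genes tested. None of them passed in limma, with log2 fold changes of 0.39 (adjusted p = 0.132), 0.51 (adjusted p = 0.132) and 0.18 (adjusted p = 0.539). They were the only 3 of 19 other cadherins with a mean FPKM of at least 1. The remaining 16 never exceeded 1.33, and 5 of them were listed at 0 in all 4 libraries. The Cdh2 level was 0.0764 and 0.0708 of that of Cdh1 in controls and 0.122 and 0.120 in deficient libraries, without overlap (exact permutation p = 0.333), a ratio added after the values were seen. Fibroblast and melanocyte markers stood higher in the same 2 libraries, by a median log2 fold change of 0.49 and 0.37 over the genes tested, and their part in the Cdh2 and Cdh11 values was not tested.

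**Figure D2:**
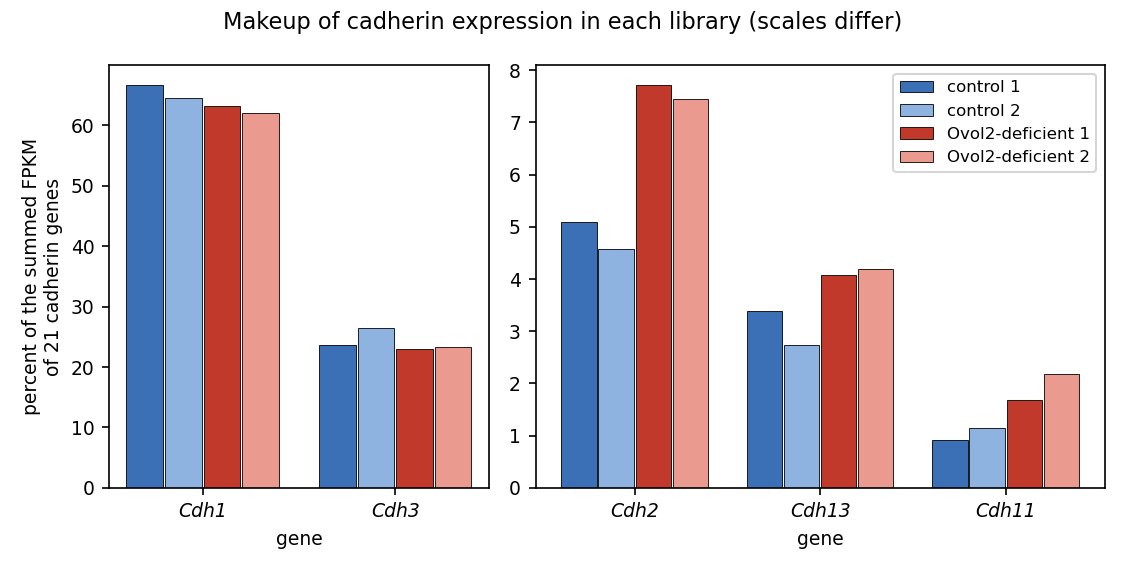
Percent of the summed FPKM of 21 cadherin genes held by Cdh1 and Cdh3 (left) and by Cdh2, Cdh13 and Cdh11 (right, a smaller scale), 1 bar per library. Cdh1 runs from 62.1% to 66.6%, and Cdh2 goes from 4.57% and 5.09% in controls to 7.45% and 7.71% in deficient libraries.

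Epcam (ENSMUSG00000045394.9, chromosome 17, 87635979 to 87651129, plus strand), an adhesion molecule of epithelial cells that pairs without calcium, was far less abundant than the cadherins. It read FPKM 15.3 and 20.2 in control libraries against 13.3 and 13.4 in deficient ones. The deficient values were nearly equal and the controls far apart. The log2 fold change of -0.38 (SE 0.14, 95% interval -0.70 to -0.06) did not pass in limma (adjusted p = 0.218). It rested on which control was used. Without control 1 it was -0.57 and passed (adjusted p = 0.0452), and without control 2 it was -0.19 (adjusted p = 0.547). The authors' deposited table gave an adjusted p of 0.268.

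Jup and Ctnnb1, the catenins that join the cadherin tail to alpha-catenin, had the highest FPKM of the set. By mean normalized signal in the authors' deposited table, an unlike measure, Jup was also first (17296). Ctnnb1 (8736) came after Cdh1 (12159) and Ctnnd1 (10988) there. Jup (ENSMUSG00000001552.14, chromosome 11, 100368958 to 100397763, minus strand), which also serves desmosomes, read FPKM 217 and 202 in control libraries against 212 and 172 in deficient ones. It was the only one of the 8 whose groups overlapped, since the first deficient library lay between the controls. Its log2 fold change was -0.13 (SE 0.12, 95% interval -0.42 to 0.16, adjusted p = 0.651 in limma), and it turned to 0.02 without Ovol2-deficient library 2. Ctnnb1 (ENSMUSG00000006932.17, chromosome 9, 120929216 to 120960507, plus strand) read 213 and 201 in control libraries against 194 and 192 in deficient ones. These did not overlap, but the gap between the groups was smaller than that between the controls, with a log2 fold change of -0.10 (SE 0.09, 95% interval -0.31 to 0.11, adjusted p = 0.647). Without control 1 the value for Ctnnb1 was -0.06.

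In FPKM, beta-catenin and plakoglobin mRNA were close to equal. The authors' deposited table gave them unequal mean normalized signals, 17296 for Jup and 8736 for Ctnnb1. FPKM is scaled to transcript length and the mean normalized signal may not be, so these are unlike measures. The cause of the difference was not tested. The ratio of Jup to Ctnnb1 was 1.02 and 1.004 in control libraries against 1.09 and 0.895 in deficient ones, which overlapped (exact permutation p = 1). Set against both cadherins, the pair stood higher in both deficient libraries. The sum of Ctnnb1 and Jup was 1.84 and 1.76 times that of Cdh1 and Cdh3 in controls and 2.11 and 2.03 times in deficient libraries, with no overlap (exact permutation p = 0.333, the smallest possible), a ratio chosen after the values were seen.

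In FPKM alpha-catenin and p120-catenin followed at somewhat lower levels. Ctnna1 (ENSMUSG00000037815.7) read FPKM 160.4 and 161 in control libraries against 151 and 147 in deficient ones, a small difference with little spread in either group. Its log2 fold change was -0.11 (SE 0.09, 95% interval -0.31 to 0.10, adjusted p = 0.595 in limma). Ctnnd1 (ENSMUSG00000034101.14, chromosome 2, 84600071 to 84650765, minus strand) read 158 and 151 in control libraries against 129 and 135 in deficient ones. Both deficient values lay outside the control range, with a log2 fold change of -0.22 (SE 0.09, 95% interval -0.43 to -0.01, adjusted p = 0.265), and the authors' deposited table gave -0.23 with an adjusted p of 0.191. Beside its partner Cdh1, Ctnnd1 stood at 0.916 and 0.927 in controls and at 0.915 and 1.03 in deficient libraries, overlapping (exact permutation p = 1). The table gives 2 transcription starts each for Ctnnd1 and Ctnnb1 and 1 for the other 6 genes, and the FPKM value covers the whole gene.

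Ctnnal1 (alpha-catulin, ENSMUSG00000038816.14, chromosome 4, 56810935 to 56865188, minus strand) is related in sequence to alpha-catenin and vinculin. It read FPKM 8.30 and 8.12 in control libraries against 3.15 and 4.11 in deficient ones. The control values were nearly equal, and the gap to the higher deficient value was larger than the difference within either group. Ctnnal1 fell by 1.002 on the log2(FPKM + 1) scale (SE 0.14, 95% interval -1.32 to -0.68, adjusted p = 0.0392 in limma), and the authors' deposited table gave -0.93 with an adjusted p of 9.09e-06. Without Ovol2-deficient library 1 it was -0.85 and without library 2 it was -1.15. The log2 fold change was -0.99 without control 1 and -1.02 without control 2. Each of these fits leaves a group of 1 library, so only the size of the change is given here. At this low level the pseudocount matters, and the log2 fold change was -1.17 with 0.1 added and -0.62 with 5 added, both past the threshold (adjusted p = 0.0354 and 0.0414). The call was lost with quantile normalization (adjusted p = 0.0554), without limma's variance trend (adjusted p = 0.0653) and with no filter on low genes (adjusted p = 0.224).

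The ratio of Ctnnal1 to its relative Ctnna1 within a library mostly restates the fall of Ctnnal1, since Ctnna1 changed little (log2 fold change -0.11). Ctnnal1 was at 0.0518 and 0.0504 of the Ctnna1 level in control libraries against 0.0209 and 0.0278 in deficient ones. The log2 difference was -1.08 with no overlap (exact permutation p = 0.333, the smallest possible). With 1 library left out the difference was -1.29 to -0.87. By depth Ctnnal1 is also the least certain of the 8, with a mean normalized signal of 313 over all samples in the authors' deposited table, beside 395 for Epcam and 4794 to 17296 for the other 6.

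**Figure D3:**
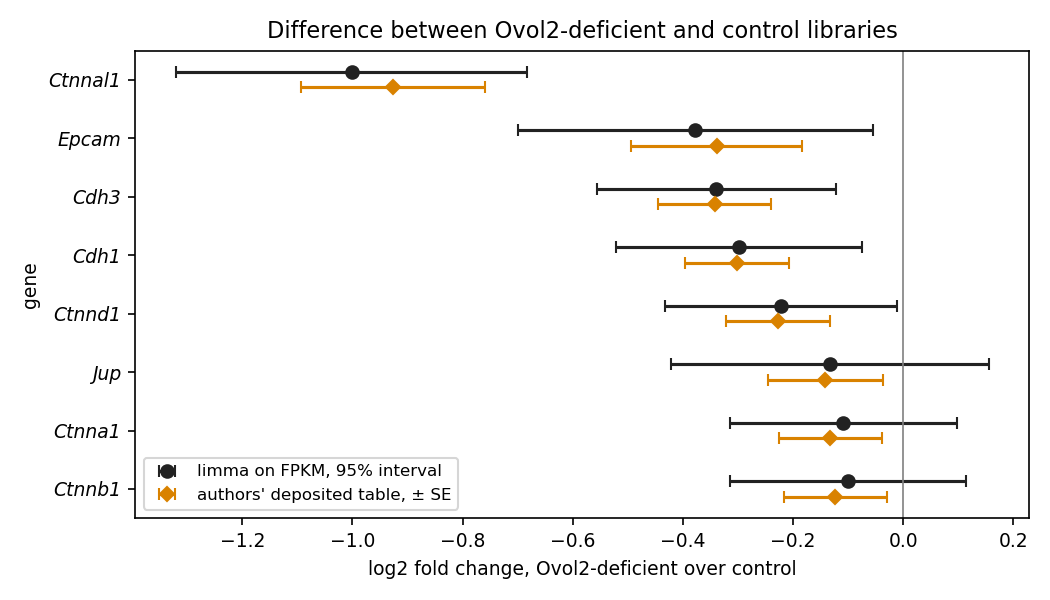
Log2 fold change of each gene, Ovol2-deficient over control, from limma with its 95% interval (black) and from the authors' deposited table with its SE (orange). Ctnnal1 stands at -1.002 and -0.93, and the intervals of Jup, Ctnna1 and Ctnnb1 cross 0.

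**Figure D4:**
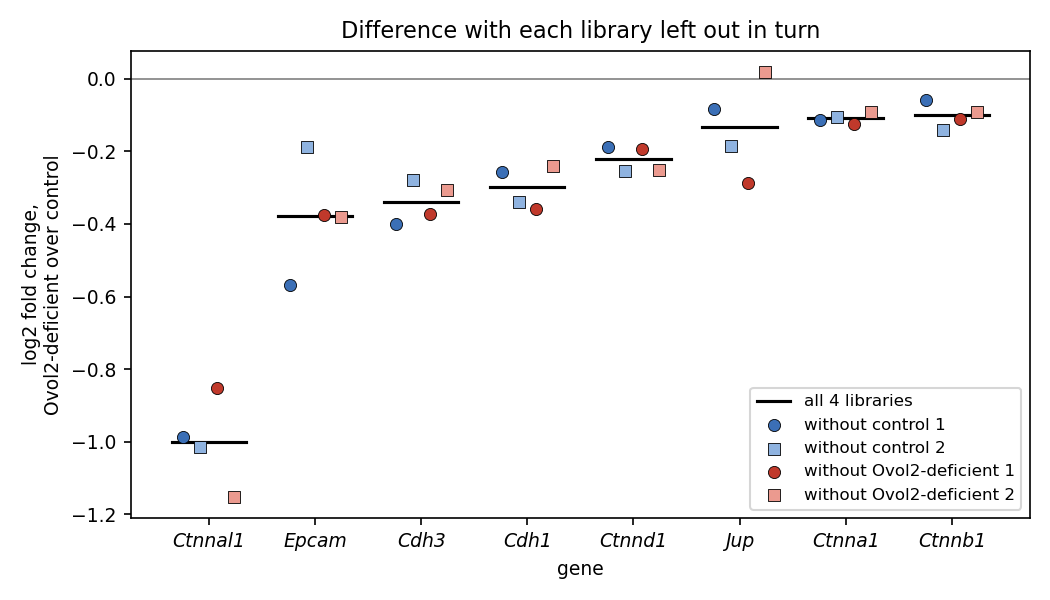
Log2 fold change of each gene with all 4 libraries (line) and with each library left out (points). Epcam spreads from -0.57 to -0.19 and Jup from -0.29 to 0.02, while Ctnna1 stays between -0.12 and -0.09.

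The order of the 8 levels in FPKM was nearly the same in both groups. In the controls it ran Jup, Ctnnb1, Cdh1, Ctnna1, Ctnnd1, Cdh3, Epcam and Ctnnal1, from 209.6 ± 10.5 to 8.21 ± 0.128 FPKM (SD, n = 2), and among neighbours only Jup and Ctnnb1 overlapped. In deficient libraries Ctnnb1 and Jup (193 ± 1.77 and 192 ± 28.8) overlapped again, as did Cdh1 and Ctnnd1 (136 ± 7.86 and 132 ± 3.70). Cdh1 lay above Ctnna1 in both controls (161 ± 0.637 for the latter) and below it in both deficient libraries (149 ± 2.38). Jup, Ctnnb1, Ctnna1, Cdh1 and Ctnnd1 were among the top 2.61% to 4.03% of the genes tested by mean FPKM, Cdh3 within 12.8% and Epcam within 45.3%, while Ctnnal1 was at 73.6%. A gene that overlaps another in the genome can share its reads. This holds for either strand here, since the library step named in the labels marks no strand. In GENCODE M21 Ctnna1 spans Lrrtm2, which read at most 0.124 FPKM, and Ctnnb1 overlaps Ulk4, at most 0.536, and 2 small genes listed at 0. Ctnnd1 overlaps Gm28635 on the same strand, a symbol absent from the expression table. No gene overlapped the other 5.

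Patterns nearest to those of Ctnnal1 and Cdh1 were sought by distance over the 4 libraries, in log2(FPKM + 1) centred on each gene's mean, among 8760 other genes whose mean FPKM reached 5. Nearest to Ctnnal1 were Jag2 (distance 0.18), a Notch ligand, Nuf2 (0.22), a kinetochore subunit, Slc2a5 (0.22), a fructose transporter, Gmnn (0.24), the replication licensing inhibitor geminin, and Mki67 (0.25), the proliferation marker. Their deficient means were 46.1% to 55.9% of the control means, and the other 7 adhesion genes ranked from 399th (Epcam) to 2897th (Jup). Nearest to Cdh1 were Pih1d1 (0.02), H1f0 (0.02), Tra2b (0.02), Siah1b (0.03) and 2310030G06Rik (0.03), with deficient means of 80.5% to 82.0% of control. Ctnnd1 and Cdh3 ranked 482nd and 573rd for likeness to Cdh1, and Ctnnal1 8256th. With 4 libraries in 2 groups many genes share such a pattern, so the distances are a description.

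Beyond the 8 genes, 6 lists of adhesion partners and regulators held 92 tested genes, and 0 passed in limma in either direction. At an unadjusted p under 0.05 there were 18, beside 17.4% of all genes tested. The authors' deposited table called 5, beside 4.43% of its rows with an adjusted p. Groups did not overlap for 35 lower genes and 18 higher genes of the 92, beside 24.0% and 24.1% of all genes. These shares also stand beside the counts of each list below.

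Among 4 tested relatives of the catenins, the median log2 fold change was -0.16 and 3 had both deficient values lower. Vinculin (Vcl), which alpha-catenin recruits under tension, read FPKM 63.1 in each control and 49.1 and 55.8 in the deficient libraries (a log2 difference of -0.26, limma adjusted p = 0.224). The p120 relatives Pkp4 and Arvcf differed less, at -0.19 and -0.12. Alpha-catenins of neural and heart tissue (Ctnna2 and Ctnna3) and the neural p120 relative Ctnnd2 never exceeded 0.253 FPKM.

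Of 25 genes of nectins, afadin and actin linkers, 15 had both deficient values lower and 2 higher, with a median of -0.11. Ajuba, a LIM protein that binds alpha-catenin, read FPKM 71.0 and 85.3 in control libraries against 59.5 and 57.5 in deficient ones (log2 fold change -0.41, limma adjusted p = 0.121, against 0.0136 in the authors' deposited table). Nectin-4, listed as Pvrl4, pointed the other way, with 24.6 and 18.9 in control libraries against 33.4 and 28.2 in deficient ones (log2 fold change 0.49, limma adjusted p = 0.146, against 0.0393 in the authors' deposited table). Actn4, an actin crosslinker chosen here after its values were seen, was the third gene of this list that the authors' deposited table called (277 and 268 FPKM, then 213 and 209.0, adjusted p = 0.00301 there and 0.101 in limma). Afadin, listed as Mllt4, overlapped between the groups at 34.5 and 39.1, then 39.0 and 37.9.

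Of 26 tested genes of cadherin turnover and signalling, 8 had lower and 3 higher deficient values without overlap, and the median was -0.02. The phosphatase Ptprf, found at adherens junctions, stood at -0.27 (adjusted p = 0.206 in limma), Rock2, a kinase that drives actomyosin contraction, at 0.28 (adjusted p = 0.198), and Psen2, a subunit of gamma-secretase, at 0.24 (adjusted p = 0.320). Adam10, which sheds the outer part of E-cadherin, read FPKM 48.9 and 42.1 in control libraries against 48.7 and 48.2 in deficient ones, which overlapped.

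Partners of beta-catenin in its destruction and in transcription had a median of -0.06 over 26 tested genes, 7 lower and 5 higher without overlap. The 3 named by size were the kinase Csnk1e (log2 fold change 0.22, adjusted p = 0.279 in limma), the coactivator Bcl9l (-0.17, adjusted p = 0.475) and the transcription factor Tcf7l1 (0.15, adjusted p = 0.512). Axin2, a target widely used to read beta-catenin signalling, read FPKM 1.99 and 2.27 in control libraries against 1.77 and 1.85 in deficient ones (limma, adjusted p = 0.646), a log2 fold change of -0.16.

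The 8 listed repressors of E-cadherin did not point one way, 5 with both deficient values higher and 2 lower, and their median was 0.35. Zeb2 read FPKM 3.20 and 4.31, then 6.33 and 7.25, and Twist2 read 6.47 and 8.57, then 13.5 and 12.6, with adjusted p of 0.0668 and 0.0572 in limma. Snai2 read 46.4 and 60.0 in control libraries against 34.3 and 31.8 in deficient ones (limma adjusted p = 0.0608). The authors' deposited table called Zeb2 higher (adjusted p = 0.00174) and Snai2 lower (adjusted p = 0.000564), and gave Twist2 an adjusted p of 0.0801. Zeb2 and Twist2 are also made by fibroblasts and Zeb2 by melanocytes, whose markers stood higher in the same libraries, and their part was not tested.

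**Figure D5:**
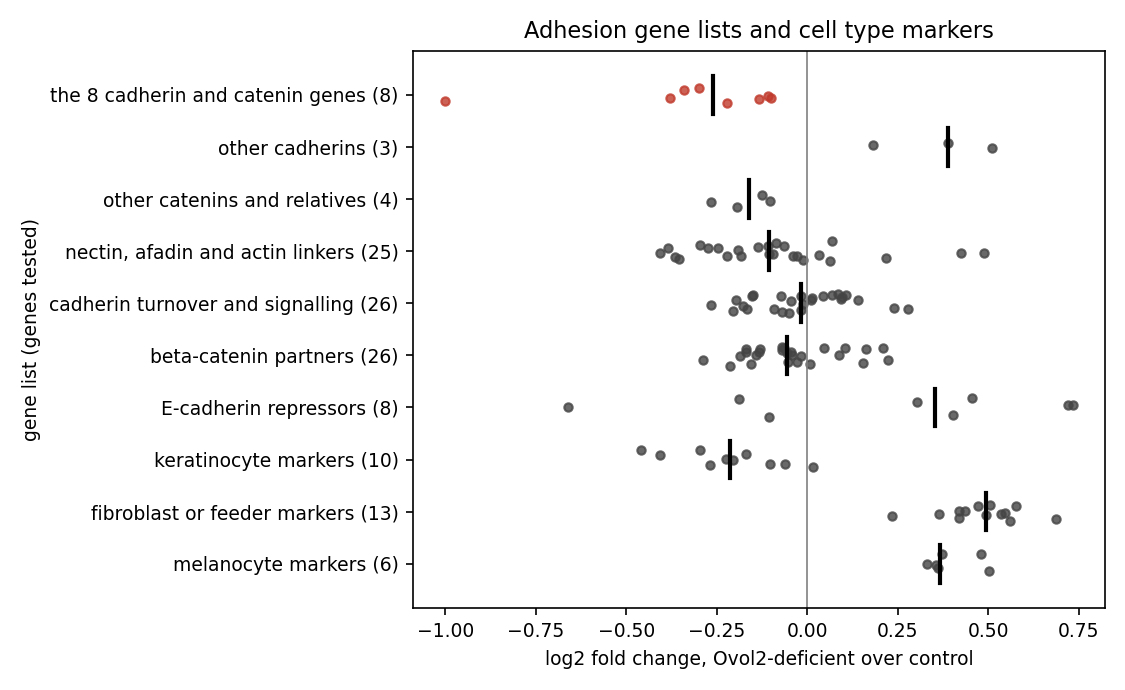
Log2 fold change, Ovol2-deficient over control, of each tested gene (points) with the list median (bar), for the 8 genes (red), 6 lists of partners and regulators, and 3 lists of cell type markers. The 8 genes have a median of -0.26, between -1.002 and -0.10, and the fibroblast or feeder markers one of 0.49.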

How the data were processed

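RNA of 4 libraries (2 control, 2 Ovol2-deficient) had been extracted with Trizol and made into tagmented Nextera libraries from amplified full-length cDNA, per the labels' protocols. TopHat, HTSeq and the build mm10 were used, per the submitters' processing notes. The tool and annotation behind the FPKM are not given in the sources used here. FPKM per gene were deposited in 1 table. A second deposited table holds the authors' mutant against control results, with a mean normalized signal, a log2 fold change with its SE, a test score and p-values (11582 rows with an adjusted p). The files used here hold no counts, so the depth per library is unknown.

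Of 24487 rows, 27 whose symbols had become dates were dropped and rows sharing a symbol were summed. The 11350 genes whose mean FPKM reached 1 entered limma 3.58.1 (R 4.3.3) as log2(FPKM + 1) (group only, variance trend, Benjamini-Hochberg adjustment, threshold 0.05). This scale understates changes of low genes. No library was a copy of another, with 5 to 13 identical values between any pair. Columns headed mutant, a name that differs from the sample titles (SSKO), were taken as the deficient group and numbered as in their headers.

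The 8 genes and all lists were chosen with earlier results of these data known. From each list the text names called genes or, failing 3, those with the largest log2 fold change among genes whose mean FPKM reached 5 and groups that did not overlap. A gene that this rule names is not reported here. Other named list genes (Cdh11, Mllt4, Adam10, Axin2, Actn4, Ctnna2, Ctnna3, Ctnnd2) were added after their values were seen. Coordinates are from GENCODE M21 on GRCm38, the same assembly as mm10. Alternatives were other pseudocounts, filters, scalings and variance models, a replicate block, each library left out, and the authors' deposited table.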

Additional observations from a re-analysis of the deposited data

How the results depend on the processing

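All 8 log2 fold changes kept their sign under the 13 alternatives run, except that of Jup, which was 0.019 without Ovol2-deficient library 2. Of 104 values of single genes, 95 kept their sign and side of the threshold. Ctnnal1 did not pass in limma with no filter on the mean (-1.002, adjusted p = 0.224), with quantile normalization (-1.04, adjusted p = 0.0554) or without the variance trend (-1.002, adjusted p = 0.0653). The first tests more genes and also gave Ctnnal1 a larger SE (0.146, against 0.135 in the main fit). The cause of the lost call was not tested for any of these settings. The authors' deposited table called Cdh1 (-0.30) and Cdh3 (-0.34). With 1 library left out, Ctnnal1 ranged from -1.15 to -0.85, Epcam from -0.57 to -0.19, and Jup from -0.29 to 0.019.

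The number of the 8 genes called was 1. It was 0 with no filter, with quantile normalization and without the variance trend, 0 to 2 with 1 library left out, and 3 in the authors' deposited table. The number of all genes called was 153. It was 3 with no filter, 267 at a mean FPKM of at least 5, 5 with quantile normalization, 80 with centred libraries, 6 without the variance trend, 513 in the authors' deposited table, and 10 to 397 with 1 library left out (10 and 25 without Ovol2-deficient library 1 or 2, 397 without control 1). For the 6 lists the number was 0, then 2 at a mean FPKM of at least 5, 5 in the authors' deposited table (added after seeing the data), and 0 to 3 with 1 library left out.

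With the replicate number as a block, 518 genes, 5 list genes and 1 of the 8 (Ctnnal1, adjusted p = 0.0150) were called in limma. Deviations of library 1 from its group mean correlated at 0.22 between the groups over 11350 genes, but the labels do not say that a number marks a shared source, so the libraries were not treated as pairs. With 1 library left out, the lone library is assumed to vary like the other group. Depth limits Ctnnal1 and Epcam most, and no counting interval was computed.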
